A study of Equus caballus with 4 samples.

Results

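Acute phase proteins are secreted proteins whose levels in plasma shift quickly during injury or infection. The genes SAA1, SAA2, PTX3, LCN2, HP, LBP, CP, TNFAIP6 and SERPINA3 were chosen as a list of 9 members, and their probes were looked up by the gene symbol in the array files. Under their own symbol, 5 of the 9 members had a probe (SAA1, LCN2, HP, LBP and CP), with 13 probes in all on an array of 43603 different probes and 24923 different symbols or identifiers. After the files had been examined, 3 other members were found through a synonym or a description in the files. TNFAIP6 was listed as TSG-6, PTX3 stood under a transcript identifier with the description of pentraxin 3, and SERPINA3 stood under a provisional locus symbol. For SAA2, 0 probes were matched, so this gene is not analysed here. 2 further probes carry the symbol SAA in the files, which was not a member, and they are given beside those of SAA1 because of this name. Only A_69_P000786 is alike in sequence to an SAA1 probe.

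The cells were equine satellite cells (ESC), stem cells of skeletal muscle that were isolated from m. semitendinosus of young stallions, and their RNA was examined on day 3 of differentiation. Cells of the HMB-treated group received 50 µM HMB (beta-hydroxy-beta-methylbutyrate, a metabolite of leucine) for 24 h, with 3 mM H2O2 added for the last 1 h. The control group received the same H2O2 without HMB, hence both groups were stressed cells. Each of 4 arrays carried cRNA of the HMB-treated group in the Cy5 channel and cRNA of the control in the Cy3 channel, so an array gave 1 ratio per probe, and n was 4. The dyes were not swapped, and treatment and dye cannot be told apart. A single culture was selected from the isolated ones, so the replicates need not be different horses, and in the labels the control of all 4 arrays has the same replicate number. Should a single control RNA have been used, its own spread is missing from the errors, and in any case the p-values measure only the spread between these arrays.

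The acute phase response is driven mainly by cytokines such as interleukin-6 and interleukin-1, which act on hepatocytes through STAT3, C/EBP and NF-kB. Serum amyloid A is the major acute phase protein of the horse and is carried in plasma on high-density lipoprotein. Several of these genes are also transcribed outside the liver: PTX3, a long pentraxin that binds microbes and complement C1q, and TNFAIP6 (TSG-6), which transfers heavy chains to hyaluronan, are made in inflamed tissues by fibroblasts, endothelial and myeloid cells. LCN2 binds iron-loaded siderophores, HP (haptoglobin) captures free hemoglobin, LBP hands bacterial lipopolysaccharide to CD14, CP (ceruloplasmin) oxidizes iron and carries copper, and SERPINA3 inhibits serine proteases such as cathepsin G.

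All probes were 60 bases long, and positions are those of build EquCab1 in the file headers. The files name no exon, but a probe that covers more than 60 bases of the genome crosses a splice junction. The following sequences are shown because they bear on which serum amyloid A transcript was measured. The first is an SAA1 probe at chr7:74139978-74140037 on the minus strand. The second is an SAA1 probe that covers 461 bases of the genome (chr7:74139463-74139923, minus strand) and so crosses a junction. The third is the SAA probe of the same stretch of the transcript (chr7:74288857-74289346, plus strand, 490 bases of the genome). Capitals mark the bases that differ between the second and the third.
SAA1 A_69_P072811: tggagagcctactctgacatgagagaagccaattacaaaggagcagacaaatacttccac
SAA1 A_69_P004166: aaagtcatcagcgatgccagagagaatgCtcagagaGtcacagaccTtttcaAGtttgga
SAA A_69_P000786: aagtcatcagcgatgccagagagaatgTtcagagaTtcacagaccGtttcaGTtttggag
Shifted by 1 base, the second and the third shared 54 of 59 bases, with 5 differences. The part that RNA of 1 locus had in the signal at the probe of the other was not tested. The other 5 SAA1 probes began at positions 506, 507, 508, 509 and 510 of the transcript, with shared stretches of 56 to 59 bases. They lay between positions 74139220 and 74139283 of chr7 and are in effect repeated readings of 1 site.

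Of the 13 probes under a member symbol, 8 were bright enough to be tested, which required at least 1 channel well above background on all 4 arrays. A probe was called where limma gave an adjusted p (Benjamini-Hochberg, over all 24670 tested probes) of at most 0.05 with an FC of at least 1.3. By this rule 7 of the 8 were higher after HMB, and 1 was not called. All 7 belonged to SAA1. Across all tested probes, 28.6% were called, 12.1% as higher and 16.4% as lower. The 8 tested probes stand for 2 genes only, SAA1 and LCN2, and this count therefore does not describe 8 independent results. Of the 3 probes matched by synonym or description, those of PTX3 and TNFAIP6 were tested, and both were called higher.

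SAA1, which encodes serum amyloid A, was the member with the largest mean log2 ratio. At the brightest of its probes (A_69_P003223), the processed signal in the control was 8730, 11769, 13155 and 13198 on arrays 1 to 4, in arbitrary units. In the HMB-treated group, the signal at this probe was 163844, 180257, 236380 and 170239. The groups did not overlap, and array 4 had the smallest log2 ratio. The log2 ratio was 4.23, 3.94, 4.17 and 3.69, a mean of 4.01 ± 0.25 (SD, n = 4) or an FC of 16.1, with a 95% confidence interval from 3.76 to 4.25 and an adjusted p of 2.13e-06 in limma. Only 0.409% of all tested probes had a larger mean log2 ratio. The 4 other probes of this site had mean log2 ratios between 3.96 and 4.07.

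The remaining SAA1 probes gave smaller ratios on every array. At A_69_P072811, the log2 ratio was 3.83, 3.58, 3.79 and 3.53 (mean 3.68 ± 0.15, SD, n = 4, FC 12.8, adjusted p of 1.47e-06 in limma). Its control signal lay between 3183 and 4445 and its signal in the HMB-treated group between 44689 and 61273. At A_69_P004166, the probe across the junction, the log2 ratio was 3.38, 3.17, 3.30 and 3.15 (mean 3.25 ± 0.11, SD, n = 4, FC 9.52, adjusted p of 1.47e-06 in limma). The order of the 3 sites was the same on all 4 arrays, with the probe across the junction lowest and the site at position 506 to 510 highest. On array 4 the lowest probe of that site was only 0.10 above A_69_P072811 on the log2 scale, against 0.31 to 0.35 on the other arrays. Whether the probes differ in how they follow RNA amount was not tested. No spot was saturated on any array.

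Both probes with the symbol SAA were called higher as well. The junction probe A_69_P000786 had log2 ratios of 3.20, 3.03, 3.20 and 3.07 (mean 3.13 ± 0.09, SD, n = 4, FC 8.72, adjusted p of 1.47e-06 in limma). This value lay next to the 3.25 of the similar SAA1 probe. A second probe with the symbol SAA, A_69_P072821, is placed elsewhere on the chromosome and on the opposite strand (chr7:74261275-74261334, minus strand), so the 2 probes with this symbol lie at different loci. It had log2 ratios of 5.05, 4.83, 4.99 and 4.63 (mean 4.88 ± 0.19, SD, n = 4, FC 29.4). The adjusted p of this probe was 9.72e-07 in limma, and 0.219% of the tested probes had a larger ratio. Its highest ungapped identity to any SAA1 probe was 51.5%, over 33 bases. SAA1 probes at different positions of the transcript were no more alike, with 42.2% between A_69_P072811 and A_69_P004166. This identity therefore cannot show whether SAA1 RNA binds to A_69_P072821, which was not tested. The 5 overlapping probes of a predicted serum amyloid A-like transcript and the 1 probe of a predicted SAA4-like transcript, both from the same region of chr7, were not well above background in either channel on any array. High signal was thus seen at the SAA1 and SAA probes and not at those of the predicted relatives.

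**Figure D1:**
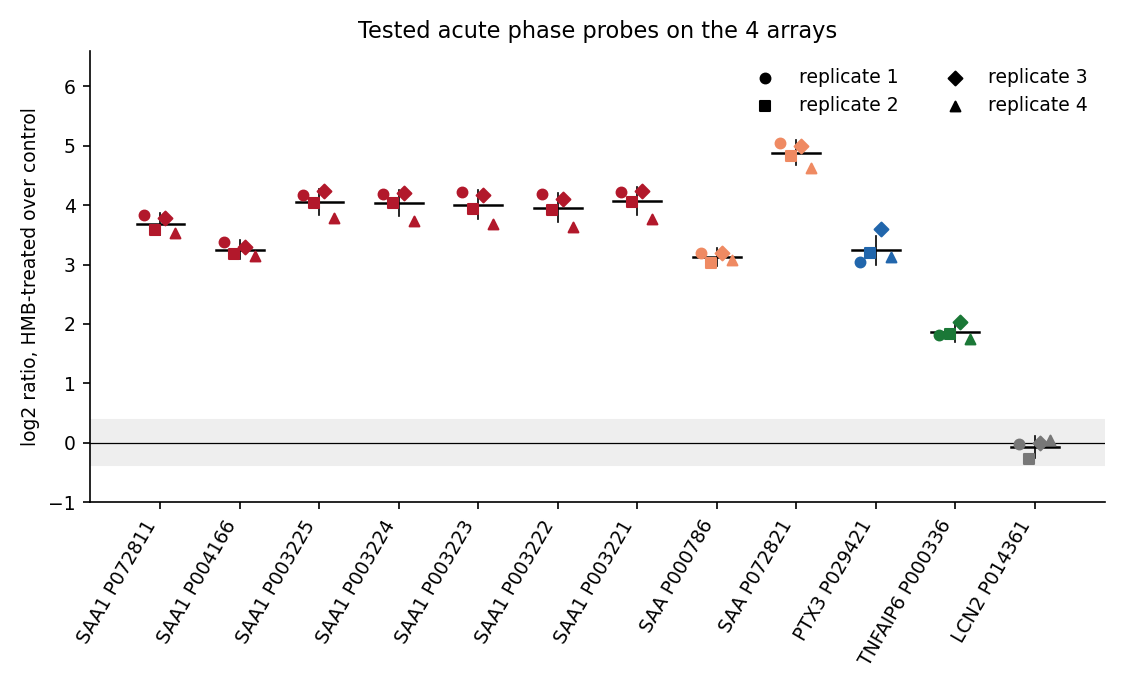
The log2 ratio of HMB-treated over control cells for the 12 tested probes of SAA1, SAA, PTX3, TNFAIP6 and LCN2, each labeled with the last part of its probe name. Symbols are the 4 arrays, horizontal lines the mean and vertical lines the 95% confidence interval, and the grey band marks an FC under 1.3. All values of SAA1, SAA, PTX3 and TNFAIP6 lie above 1.7, whereas those of LCN2 lie in the band.

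PTX3, the long pentraxin, was well above background in both groups on all 4 arrays, with a low signal in the control. At its probe (A_69_P029421, chr19:3243968-3244027, minus strand), the control signal was 148, 120, 201 and 131, and the signal in the HMB-treated group was 1212, 1099, 2428 and 1133. Array 3 was the highest in both groups, and the groups did not overlap. The log2 ratio was 3.04, 3.20, 3.60 and 3.12, a mean of 3.24 ± 0.25 (SD, n = 4) or an FC of 9.42, with an interval from 2.99 to 3.48 and an adjusted p of 5.12e-06 in limma. A larger ratio was found for 0.819% of the tested probes. The size depended on the background correction. With normexp and loess the mean log2 ratio was 2.35, which is more than 1.5 times lower as an FC, and the call was kept.

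TNFAIP6, the hyaluronan-binding protein TSG-6, rose less than SAA1 and PTX3. Its probe (A_69_P000336, chr18:21992062-21992121, plus strand) gave a control signal of 834, 680, 963 and 712. In the HMB-treated group the signal was 2938, 2420, 3936 and 2399, above all control values. The log2 ratio was 1.82, 1.83, 2.03 and 1.75, a mean of 1.86 ± 0.12 (SD, n = 4) or an FC of 3.62, with an interval from 1.69 to 2.03 and an adjusted p of 1.10e-05 in limma. A larger ratio was found for 2.00% of the tested probes. With scaling on the spike-in probes the mean log2 ratio was 1.27, and the call was kept. The spike-in transcripts had log2 ratios from -2.16 to 3.18, so the zero of this setting is uncertain.

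LCN2, also called neutrophil gelatinase-associated lipocalin, was measured on all arrays and was not called. Its probe (A_69_P014361, chr25:7178644-7179490, minus strand, across a junction) had a control signal of 341, 301, 350 and 288. The signal in the HMB-treated group was 336, 248, 347 and 296, within or just below the range of the control. The log2 ratio was -0.02, -0.28, -0.01 and 0.04, a mean of -0.07 ± 0.14 (SD, n = 4), with an adjusted p of 0.489 in limma. The 95% confidence interval of the ratio ran from 0.841 to 1.08, which does not reach an FC of 1.3 in either direction. This mean equaled the median of all tested probes, which was -0.07. The interval of LCN2 lies below those of SAA1, PTX3 and TNFAIP6 without overlap. With scaling on the spike-in probes, which moved the median of all tested probes by -0.60 to -0.67, the log2 ratio of LCN2 was -0.66 with an adjusted p of 0.00089 in limma, and it was called lower.

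CP, HP, LBP and SERPINA3 gave signals near or at background. For CP, a ferroxidase of plasma, the 3 probes lay at the end of the gene on chromosome 16. A_69_P107986 (chr16:78453396-78456695, across a junction) was well above background in both channels on 3 of 4 arrays, with a control signal of 30, 37.7, 56.7 and 24.7 and a signal in the HMB-treated group of 37.0, 40.9, 44.5 and 32.9. Its log2 ratio was 0.30, 0.12, -0.35 and 0.41, so the arrays fell on both sides of 0. The overlapping probe A_69_P002862 was above background on arrays 1 and 3 only, with log2 ratios of 0.72 and 0.24 there. The third CP probe was not above background on any array. None of the 3 met the filter. In limma without the filter, the CP probes had mean log2 ratios of 0.12, 0.66 and 0.55. Their adjusted p-values in limma were 0.631, 0.0478 and 0.288, so 1 of 3 was called. This call, of A_69_P002862, rested in part on arrays 2 and 4 (0.77 and 0.92), where the spot was not above background.

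For HP, the hemoglobin scavenger, the probe at chr3:21789421-21789480 was not well above background on any array. Signals were 4.62 to 5.34 in the control and 6.28 to 7.99 in the HMB-treated group, all of them surrogate values set by the software. For LBP, the lipopolysaccharide carrier (chr22:28601801-28603661), the signal was 3.58 to 5.40 in the control and 5.37 to 15.3 in the HMB-treated group. The listed log2 ratios of LBP were 1.42 and 1.5 on arrays 1 and 4 and 0 on arrays 2 and 3, and none of them came from a spot above background. The SERPINA3 probe (chr24:36745730-36745789) had signals of 4.56 to 8.61 in the control and 5.97 to 7.90 in the HMB-treated group. The lowest signal called well above background was 18.3 to 23.6 in the control and 22.4 to 28.1 in the HMB-treated group, depending on the array. No FC is given for HP, LBP and SERPINA3 because both groups were below these limits.

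**Figure D2:**
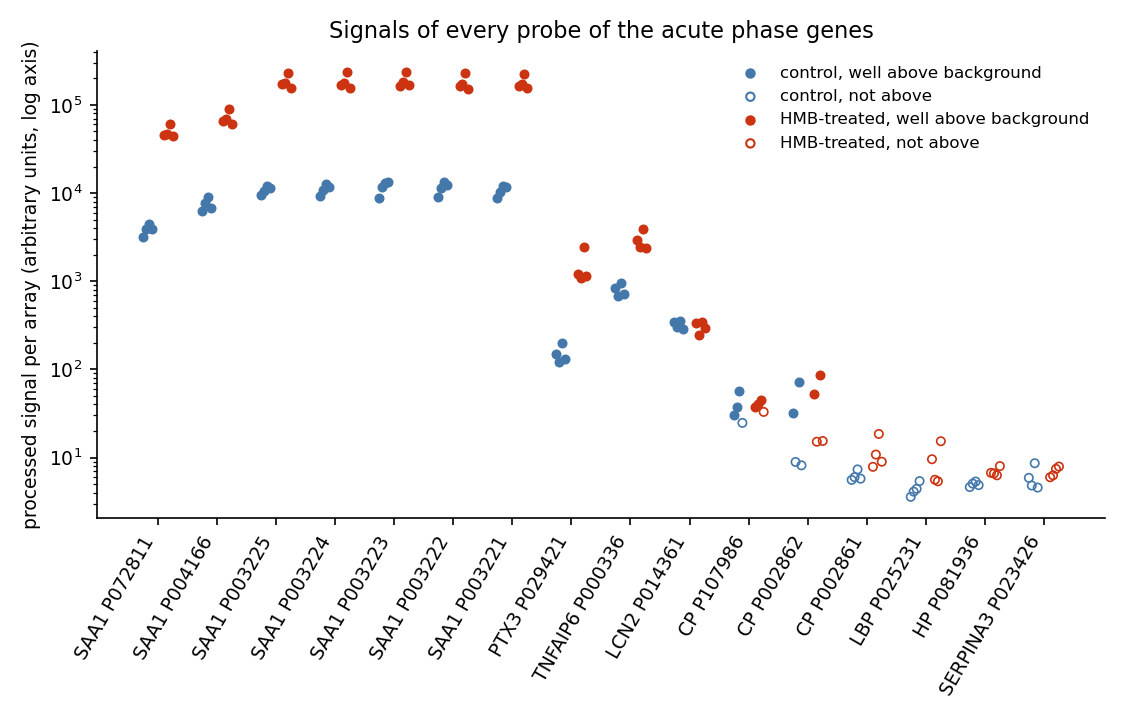
Processed signal of each of the 16 probes of the members on the 4 arrays, in arbitrary units on a log axis, with control values in blue and HMB-treated values in red. Filled circles were well above background and open circles were not. The SAA1, PTX3 and TNFAIP6 values of the HMB-treated group lie above the control, those of LCN2 overlap, and those of LBP, HP and SERPINA3 are open in both groups. Signals of different probes are not comparable as amounts of RNA.

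Among 22 inducers and signal transducers of the acute phase response, 15 had a probe and 8 were tested, of which 3 were called higher and 0 lower. Their median log2 ratio was 0.20, beside -0.06 over the tested genes of the array with 1 probe each. Of all tested probes, 12.1% were called higher and 16.4% lower, and these shares stand beside this list and those below. IL6, the main inducer of acute phase genes, had log2 ratios of 4.53, 4.35, 4.41 and 3.99 (mean 4.32 ± 0.23, SD, n = 4, FC 20.0, adjusted p of 1.60e-06 in limma). JAK2, a kinase of cytokine receptors, had a mean of 2.36 ± 0.24, and NFKB1, which encodes the p50 subunit of NF-kB, one of 0.95 ± 0.16. TNF and JAK1 were measured and not called (0.02 ± 0.18 and 0.03 ± 0.14). IL6ST, named because its 2 probes differed, was not called at its brighter probe (0.24 ± 0.28), but its other probe was called higher (0.42). Outside the naming rule, the brightest IL1B probe was not above background on any array, the brightest of 3 IL1A probes was above background in 1 control and 3 HMB-treated samples and was not tested (log2 ratios of 0.39, 3.12, 3.24 and 0.85), and the probe of SOCS3, an inhibitor of this signaling, was above background on 2 arrays and was not tested. With normexp and loess, IL6 was at 3.62 and JAK2 at 1.68, and both kept their calls. With scaling on the spike-in probes, JAK2 was at 1.75, NFKB1 was no longer called (0.34, adjusted p of 0.043), and TNF and JAK1 were called lower (-0.56 and -0.55).

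Of 24 other acute phase genes of the liver, 15 had a probe and 3 were tested, of which 2 were called higher. CFB, complement factor B, had log2 ratios of 4.94, 4.95, 5.07 and 4.51 (mean 4.87 ± 0.25, SD, n = 4, FC 29.2, adjusted p of 1.47e-06 in limma). SERPING1, the inhibitor of complement C1, had 1.75, 2.50, 2.42 and 1.53 (mean 2.05 ± 0.48). HAMP, which encodes hepcidin, was not called (0.05 ± 0.21). With normexp and loess, CFB was at 3.94 and SERPING1 at 1.3, and with scaling on the spike-in probes they were at 4.28 and 1.42, with both calls kept. HAMP was called lower with scaling on the spike-in probes (-0.69, adjusted p of 0.00431 in limma). For 10 of the 15, including CRP, APCS, FGB and HPX, neither channel was well above background on any array. Thus few of these genes could be measured, and both called genes belong to the complement system.

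The list of partners and receptors of the member proteins held 30 genes, of which 24 had a probe and 11 were tested. Of these, 6 were called higher, 1 lower and 4 were not called, with a median log2 ratio of 0.52. TLR2, a receptor of serum amyloid A and bacterial lipoproteins, was not well above background in any control and was so in all HMB-treated samples. Its mean signal was 8.19 in the control and 90.7 in the HMB-treated group. On the deposited signals this was at least 4.08-fold higher in the HMB-treated group, a bound in which each control value is replaced by the lowest signal above background on its array. The adjusted p of 0.000166 in limma belongs to the fitted mean log2 ratio of 3.47 ± 0.72, and the probe passed the filter only through the HMB-treated group. That ratio was 0.63 with normexp and loess and 1.0 with loess and no background correction, both below the 2.03 of the bound on this scale, with the call kept. With both channels required above background, TLR2 was not tested and 5 genes of the list were called higher. LY96 and TLR4, which form the lipopolysaccharide receptor that LBP and CD14 feed, had mean log2 ratios of 0.88 ± 0.12 and 0.52 ± 0.08, respectively. The second TLR4 probe had a mean of 1.97. CD14 itself was at 0.20 ± 0.19 and was not called.

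In the hyaluronan system on which TNFAIP6 acts, HAS2, a hyaluronan synthase, had a mean log2 ratio of 1.12 ± 0.47, and CD44, a hyaluronan receptor, had 0.68 ± 0.08. HAS2 had 1.40 and 1.62 on arrays 1 and 2 but 0.69 and 0.77 on arrays 3 and 4, and the methods' t-test gave it an adjusted p of 0.0536. The heavy chain genes ITIH1, ITIH2 and ITIH3, the substrates of TNFAIP6, were too dim to be tested. FGF2, a growth factor bound by PTX3, had 1.05 ± 0.25. TFRC, the transferrin receptor, was called lower (-0.39 ± 0.19), while FTH1 and FTL, the ferritin chains, were not called (0.16 ± 0.15 and 0.25 ± 0.15). TFRC is named after its value was seen, since it was the 1 lower gene of the list, and it did not hold its call. The number of genes of the list called lower was 0 with the methods' t-test, treat, normexp and loess, loess and no background correction, the correction for probe GC content and no filter on dim probes, and also without replicate 2 or without replicate 4. With treat, TLR4 lost its call (adjusted p of 0.196). With median centring in place of lowess, FTH1 and FTL were called higher (0.93 and 0.40), and FTH1 also with normexp and loess (0.41). With scaling on the spike-in probes, HAS2 was at 0.49, TLR4 at -0.08 and CD44 at 0.17, and the calls of both and of LY96 (0.30) were lost.

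**Figure D3:**
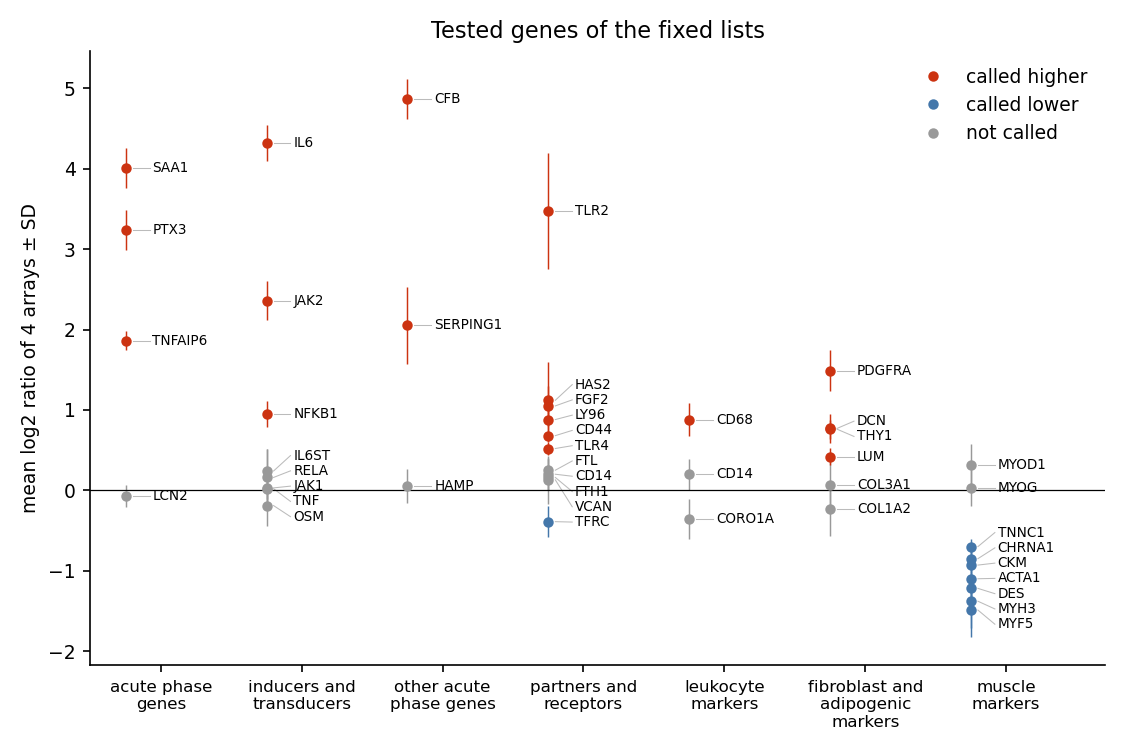
Mean log2 ratio with SD over the 4 arrays for each tested gene of 7 lists, with 1 probe per gene. Red marks genes called higher, blue genes called lower and grey genes that were not called. SAA1, IL6, CFB, TLR2 and PTX3 lie above 3, and 7 of the 9 tested muscle markers are blue. The TLR2 point is the fitted value against controls that were not above background.

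Markers of other cell types were read beside these values, each by its brightest probe. Of 10 liver markers, 10 had a probe and 0 could be tested, and the summed signal was 99.5 to 191 in the control and 114 to 229 in the HMB-treated group. Among these, TTR, APOA1, APOB, CPS1 and F2 were not well above background in any sample. None of the 6 endothelial markers with a probe could be tested (summed signal 47.3 to 87.7 in the control and 55.2 to 175 in the HMB-treated group), and PECAM1, CDH5, KDR and VWF were at background throughout. Of 8 leukocyte markers with a probe, 3 were tested and 1 was called higher, CD68 (0.88 ± 0.20). CD14 was also tested and was not called (0.20 ± 0.19). The summed leukocyte signal was 3842 to 4632 in the control and 4244 to 6369 in the HMB-treated group. Most of it came from CD14, with a mean signal of 3992 in the control and 4645 in the HMB-treated group. ITGAM and CD3E were at background. CORO1A was at -0.36 ± 0.25 and was not called, but it was called lower without replicate 4 (-0.46, adjusted p of 0.0165 in limma), with median centring in place of lowess (-0.39) and with scaling on the spike-in probes (-1.06). The call of CD68 was lost with scaling on the spike-in probes (0.20).

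Of 9 fibroblast and adipogenic markers with a probe, 6 were tested and 4 called higher, namely PDGFRA (1.49 ± 0.26), DCN (0.77 ± 0.18), THY1 (0.76 ± 0.12) and LUM (0.42 ± 0.11). PDGFRA was dim in the control, with a mean signal of 32.6 against 93.6, and its ratio was 0.47 with normexp and loess, 0.65 with loess and no background correction and 0.73 with scaling on the spike-in probes, with the call kept. The other PDGFRA probe had a mean of 2.15 and was also called higher. COL1A2 and COL3A1 were not called at their brightest probes (-0.23 ± 0.34 and 0.06 ± 0.29), but 3 of the 7 COL3A1 probes were called higher (range of all 7 from 0.06 to 0.42), and FABP4 and PPARG were at background. The summed signal was 413358 to 503684 in the control and 405660 to 633692 in the HMB-treated group, so the ranges overlapped. COL1A2 (mean signal 252240 in the control and 218283 in the HMB-treated group) and COL3A1 (146273 and 155284) made up most of this sum. COL1A2 was called lower without replicate 3 (-0.39, adjusted p of 0.0178 in limma) and higher with median centring in place of lowess (0.70). COL3A1 was also called higher with that centring (0.84). THY1 and LUM lost their calls with scaling on the spike-in probes (0.18 and -0.08), and LUM also with treat and with normexp and loess (0.37). All 9 muscle markers with a probe were tested, and 7 were called lower, 0 higher. The values were -1.49 ± 0.34 for MYF5, -1.38 ± 0.33 for MYH3, -1.22 ± 0.29 for DES, -1.10 ± 0.22 for ACTA1, -0.93 ± 0.22 for CKM and -0.85 ± 0.09 for CHRNA1. MYOG (0.03 ± 0.22) and MYOD1 (0.32 ± 0.25) were not called, but without replicate 4 MYOD1 was called higher (0.45, adjusted p of 0.0086 in limma). The other MYOD1 probe had a mean of -0.11 and was not called in the main setting. MYOG was called lower with scaling on the spike-in probes (-0.60). MYF5 was at -0.71 with normexp and loess and at -2.15 with scaling on the spike-in probes, and called lower in both. The summed muscle marker signal was 203015 to 225599 in the control and 85831 to 130246 in the HMB-treated group. In RNA from whole cultures, fewer cells of a type and less RNA per cell cannot be told apart. The part of any cell type in the SAA1, PTX3 and TNFAIP6 values was not tested.

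The tested genes whose ratios on the 4 arrays were closest to those of each member were named by Euclidean distance on the log2 scale, over 8240 symbols. For SAA1 they were USP18 (distance 0.30, mean 4.03 ± 0.34) and BIRC3 (0.35, mean 3.98 ± 0.31). For PTX3 they were ISG20 (0.43, mean 3.14 ± 0.39) and IFI35 (0.46, mean 3.1 ± 0.23). For TNFAIP6 they were IRF1 (0.26, mean 1.74 ± 0.11) and PPAP2B (0.26, mean 1.77 ± 0.21), and for LCN2 ATP6V0B (0.06, mean -0.09 ± 0.15) and RCN1 (0.06, mean -0.09 ± 0.15). With 4 arrays this distance mostly reflects a like mean ratio, and it is given as a description.

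The calls of SAA1, PTX3 and TNFAIP6 were kept under each of the 18 alternative settings. The mean log2 ratio of the brightest SAA1 probe, or of all SAA1 probes where they were averaged, ranged from 3.74 to 4.40, that of PTX3 from 2.35 to 3.33 and that of TNFAIP6 from 1.27 to 1.95. The split of the calls over the whole array was less stable. Of 7046 called probes, 42.5% were higher, whereas this share was 55.0% with normexp and loess, 60.1% with loess and no background correction, 55.8% with the correction for probe GC content and 4.94% with scaling on the spike-in probes.

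**Figure D4:**
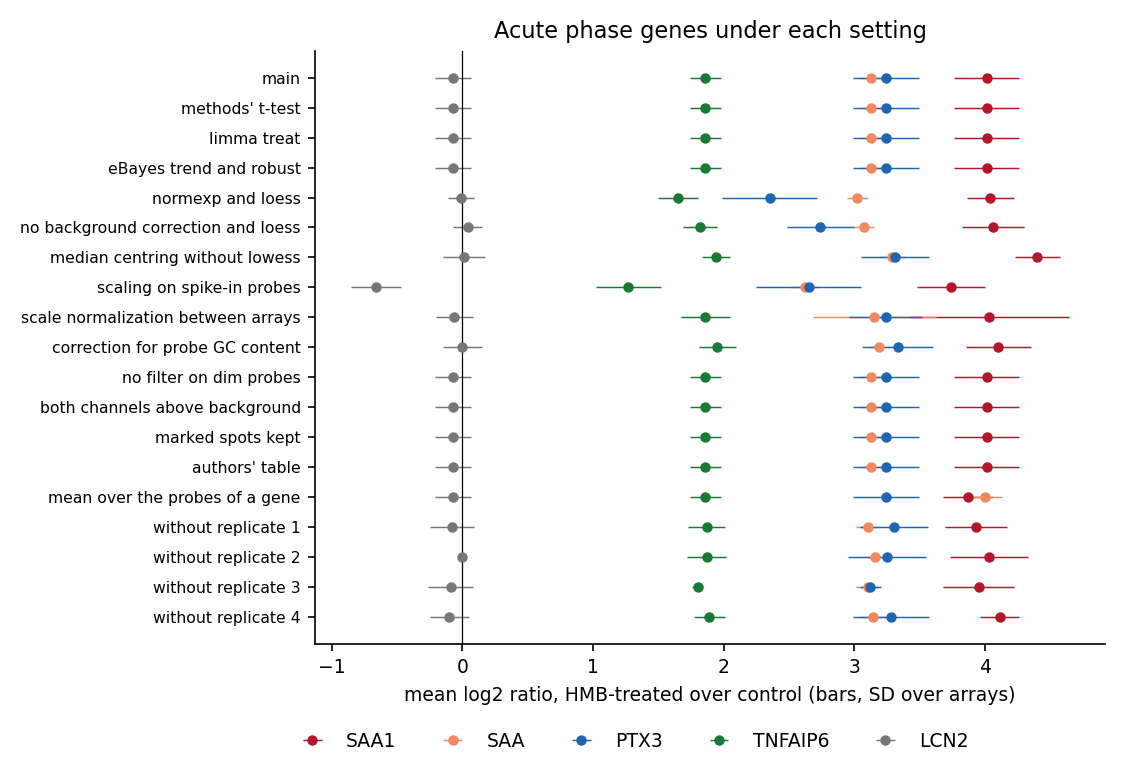
Mean log2 ratio of SAA1, SAA, PTX3, TNFAIP6 and LCN2 under the main setting and each alternative, with bars for the SD over the arrays used. SAA stands for the junction probe A_69_P000786, except where probes are averaged, which joins probes at 2 loci. SAA1, SAA, PTX3 and TNFAIP6 stay above 1.2 in all rows, and LCN2 stays near 0 except with scaling on the spike-in probes, where it lies at -0.66.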

How the data were processed

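The authors labeled RNA of HMB-treated cells with Cy5 and control RNA with Cy3 and hybridized both to Agilent horse arrays (60-base probes) on 1 slide. Per the file headers, Feature Extraction 10.10.1.1 subtracted the background and applied linear and lowess normalization within each array. The deposited intensity values are spot brightness and processed signals, with surrogates at background, and the deposited log10 values are ratios of Cy5 over Cy3. The log2 ratios are these deposited ratios after a change of base. The authors' table held the same ratios (largest difference 3.96e-05).

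Controls and marked spots (13 to 35 per array) were left out, and spots of 1 probe were averaged. Of the spots, 57.6% to 60.6% were well above background in Cy3 and 55.2% to 61.8% in Cy5, and the arrays correlated at 0.837 to 0.920 over tested probes. The number of arrays limits the precision. A probe was tested (24670 in all) if Cy3, Cy5 or both were well above background throughout the 4 arrays and no fewer than 3 arrays gave an unmarked ratio. R 4.3.3 with limma 3.58.1 fitted an intercept with empirical Bayes moderation and the Benjamini-Hochberg correction, with thresholds of 0.05 and an FC of 1.3, and was tested on simulated data. A gene was represented by its brightest tested probe. Names came from the files, then from RefSeq synonyms and accessions.

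The members and lists were chosen with earlier results of these data known. In each other list the text names up to 6 called genes with the largest change and up to 2 that were not called. Alternatives were the methods' t-test, treat, a trend with robust moderation, other background corrections, centring, scaling and filters, a GC correction, the authors' table, gene means and leaving out each replicate. The list counts omit a few genes that are not reported here. Promoters and protein sequences were not analysed here.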

Additional observations from a re-analysis of the deposited data

Results flagged for a closer look

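Among 45 probes examined, 3 had 1 array that stood apart from the other 3 by Dixon's test at the 95% level, and chance gives about 1 in 20. None belonged to an acute phase gene. The log2 ratio of DES was -0.79 on array 3 against -1.40 to -1.32 on the others, and that of CKM was -0.61 on array 3 against -1.07 to -1.02. The log2 ratio of MYOD1 was -0.06 on array 4 against 0.42 to 0.46.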

How the results depend on the processing

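The 7 SAA1 probes were called higher under each of the 17 alternatives for probes, and the representative probes of SAA1, SAA, PTX3 and TNFAIP6 under each of 18, with a highest adjusted p of 0.00718, 0.00608, 0.00794 and 0.0072, respectively. LCN2 changed its call once, to lower (-0.66) with scaling on the spike-in probes. That setting takes the mean of 10 spike-in transcripts as no change, and the ratios at which they were added are not given in the sources used here. The deposited log2 ratios of these transcripts ran from -2.16 to 3.18. Calls that change under this setting alone therefore depend on an uncertain zero. The number of called probes was 2822 with treat, 3538 with normexp and loess, 4439 with loess and no background correction and 20166 with scaling on the spike-in probes, against 7046. Without 1 replicate it was 6637 to 7151. HMB and dye cannot be told apart under any setting, and HP, LBP, CP and SERPINA3 were too dim to be compared. Each array holds both groups, so its ratio is already the paired comparison and no further replicate block was fitted. Where the probes of a symbol were averaged, the SAA value (4.00) joins 2 loci and stands for no single gene.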
